A study of Bos taurus with 6 samples.

Results

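The unfolded protein response (UPR) and the integrated stress response (ISR) were followed in cattle fibroblasts through 10 genes, ATF4, DDIT3, XBP1, HERPUD1, DNAJB9, HSP90B1, TRIB3, ASNS, CHAC1 and SDF2L1. They were found by gene name in the table of all genes, where they made up 10 of 17663 genes, and all 10 passed the filter on low counts. RNA was sequenced from primary fetal fibroblasts (bEFs), connective tissue cells cultured from bodies of fetuses of 50 to 60 days without head, limbs, organs and bones. The FT group came from 3 fetuses carrying the fat-1 transgene, which encodes an enzyme that turns n-6 into n-3 polyunsaturated fatty acids. The WT group came from 3 wild-type Luxi fetuses. The study's methods do not give the breed of the FT fetuses, so any difference in breed cannot be told apart from the transgene. From every fetus 1 poly(A) library was sequenced (n = 3 in each group), named FT_1, FT_2, FT_3, WT_1, WT_2 and WT_3. The promoter that drives the transgene is not given in the sources used here, and the transgene's own RNA was not analysed here.

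Secretory cells fold new proteins in the endoplasmic reticulum (ER). When unfolded proteins build up there, the sensors PERK, IRE1 and ATF6 raise the output of chaperones and of the machinery that removes misfolded proteins, and IRE1 does so by splicing the XBP1 mRNA. PERK is also a kinase of the ISR, in which phosphorylation of the initiation factor eIF2 lowers general protein synthesis but favours translation of ATF4, a transcription factor for amino acid metabolism and for DDIT3 (CHOP), so part of the ISR is set by translation and not by mRNA level. Fibroblasts secrete collagen and fibronectin in large amounts and depend on this folding capacity.

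The total count per library was 63366834, 48167642 and 54204446 in FT_1, FT_2 and FT_3 and 69777641, 51310741 and 54271927 in WT_1, WT_2 and WT_3. The 10 genes were measured with between 177 counts, for SDF2L1 in FT_1, and 157389 counts, for HSP90B1 in WT_1. FPKM, fragments divided by gene length and by the library's total, is the authors' unit and is used for levels. Differences are log2 fold changes of the counts, FT against WT, with their standard error (SE), from edgeR's quasi-likelihood test across 13482 genes, with libraries rescaled by TMM factors, and a gene was called at a Benjamini-Hochberg adjusted p under 0.05.

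FT_1 stood apart from FT_2 and FT_3. A chi-square per gene, with a mean close to 1 where counting noise is all that separates a pair of libraries, averaged 763 between FT_1 and FT_2 and 822 between FT_1 and FT_3, against 11.7 between FT_2 and FT_3 and 20.2 to 36.1 between WT libraries. Fibronectin (FN1), a secreted matrix protein, took 7.01% of all counts in FT_1 but 1.66% and 1.71% in FT_2 and FT_3, and 0.222% to 0.282% in WT libraries. The counts and fold changes of the 10 genes and the counts for the lists are therefore also given without FT_1.

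The labelled cell type was checked against lists of marker genes. All 10 fibroblast markers were in the table, and their summed FPKM was 6828 in FT_1 but 17047 and 16783 in FT_2 and FT_3, and 17821, 17272 and 17360 in the WT libraries. VIM, the highest of them by the mean over all libraries though under DCN in FT_1 and FT_2, had FPKM values of 1244, 3850.2 and 4171 in FT_1, FT_2 and FT_3 and 7891, 8178 and 7312 in WT_1, WT_2 and WT_3. Other markers of the list, named after their values were seen, went both ways. As for VIM, every FT library was lower than every WT library for COL1A2 (1177, 1975 and 1933 in FT and 2279, 2077 and 2434 in WT) and COL3A1 (433, 1082 and 1006 in FT and 1244, 1106 and 1322 in WT), neither of which was called. PDGFRA, the called one, had 218, 166 and 141 in FT and 93.5, 87.0 and 99.7 in WT libraries (log2 fold change 1.06, adjusted p = 0.0053 in edgeR), THY1 was highest in FT_1, at 413, and DCN and LUM were lowest in FT_1 and highest in FT_2 and FT_3. DCN had 1803, 4092 and 3769 in FT and 2299, 2054 and 2227 in WT libraries, and LUM had 551, 2759 and 2559 in FT and 1224, 1117 and 1137 in WT libraries. The summed FPKM of 4 epithelial markers was 132.2 in FT_1 and between 7.83 and 13.9 in the other libraries. CDH1, the adhesion protein of epithelia and the highest of that list in every library but FT_1, had 36.3, 7.11 and 8.41 in FT and 10.0, 7.83 and 13.9 in WT libraries. KRT8, a keratin of simple epithelia, had 84.1, 0.95 and 0.61 in FT_1, FT_2 and FT_3 and was listed at 0 in every WT library, while EPCAM was listed at 0 in all but FT_1. MSLN, the mesothelial marker with the highest level, had 199, 44.9 and 46.2 in FT_1, FT_2 and FT_3 and 2.08, 3.18 and 3.06 in WT_1, WT_2 and WT_3, and the mesothelial list summed to 199.7, 45.0 and 46.3 in FT and 2.32, 3.48 and 3.34 in WT libraries. UPK3B, also on the mesothelial list, had 1.03, 0.1 and 0.09 in FT_1, FT_2 and FT_3 and 0.2, 0.25 and 0.25 in WT_1, WT_2 and WT_3 (adjusted p = 0.476 in edgeR). Unlike for MSLN, FT_2 and FT_3 were lower than every WT library for UPK3B, and the sum of the list is almost all MSLN. WT1, the remaining gene of that list, stayed under an FPKM of 0.1 in every library.

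Markers of blood and vessel cells were low. The 3 macrophage markers in the table, led by CD14, summed to 3.52 to 4.12 in FT and 6.65 to 7.93 in WT libraries, the 4 endothelial markers, led by PECAM1 in FT_1 and WT and by VWF in FT_2 and FT_3, to 0.35 to 0.65 and 0.79 to 1.26, with KDR under 0.1 throughout. DES, the skeletal muscle marker in the table, had 5.74, 4.01 and 3.17 in FT and 0.070, 0 and 0 in WT libraries, and the other listed macrophage and muscle markers were not analysed here. Genes with a high secretory load, a list of FN1, SPARC and 3 fibrillar collagen genes that shares the collagens with the fibroblast list, summed to 11805, 9278 and 9359 in FT and 7828, 7261 and 8158 in WT libraries. FN1 was the highest of that list in FT_1, and had FPKM values of 7499, 1780 and 1831 in FT and 284, 239 and 304 in WT libraries. It was the only gene of the list that was called, and the higher sums in FT libraries rest largely on it. SPARC was slightly higher in every FT library, and COL1A2 and COL3A1 were lower, as given above. COL1A1 was the highest of the list by the mean over all libraries, though under COL1A2 in FT_1 and WT_3. Its values were 914, 2611 and 2689 in FT_1, FT_2 and FT_3 and 2288, 2212 and 2331 in WT_1, WT_2 and WT_3. In such bulk RNA, fewer cells of a type and less RNA per cell cannot be told apart. Between the groups, MSLN (adjusted p = 0.00346 in edgeR), DES (adjusted p = 0.00488 in edgeR) and FN1 (adjusted p = 0.00668 in edgeR) were called higher in FT cells. The macrophage marker CD68 was called lower (adjusted p = 0.0185 in edgeR). MSLN, DES and FN1 were above every WT library in FT_2 and FT_3 as well. The marker values leave it uncertain whether FT_1 is a fibroblast culture as labelled. The part that these markers and FT_1 play in the results was not tested.

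Over the 10 genes, edgeR called 5 lower and 0 higher in FT cells. The lower ones were DDIT3, TRIB3, ASNS, DNAJB9 and HSP90B1. Among all genes tested, 18.9% were called lower and 20.1% higher, so 5 of 10 lies above the share of lower genes in the table. The 10 genes were chosen with earlier results of these data known, so this comparison is not independent support. None of the 10 genes was higher at an unadjusted p under 0.05, nor in DESeq2 or limma. The median log2 fold change of the 10 genes was -0.68, against 0.03 for all genes, and 9 of the 10 values were negative. Without FT_1, 7 of the 10 genes were called lower, with ATF4 and CHAC1 added, and 0 were higher, where 31.5% and 30.6% of all genes were called in these directions. The count was 4 without FT_2 and 3 without FT_3, WT_1, WT_2 or WT_3, since TRIB3 lost its call without each of these libraries and ASNS without each but FT_2. The share of lower genes over all genes fell as well, to 14.2% without FT_2, 14.4% without FT_3 and 11.1% to 12.6% without a WT library.

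Other ways of calling gave related counts. On log2(FPKM + 1) values as deposited, limma also called 5 of the 10 genes lower, the same genes, and 0 higher, beside 29.2% and 15.0% of 12247 genes. The threshold of the study's methods, an unadjusted p under 0.05 with a log2 fold change beyond 1 in either direction, left DDIT3 and TRIB3 lower and 0 genes higher, beside 8.96% and 10.2% of all genes. FPKM values of every FT library lay under those of every WT library for 7 of the 10 genes, the exceptions being ATF4, XBP1 and CHAC1, and for 36.9% of all genes tested. After TMM scaling of the counts this held for 5 of the 10 genes, those called by edgeR, and for 29.4% of all genes.

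**Figure D1:**
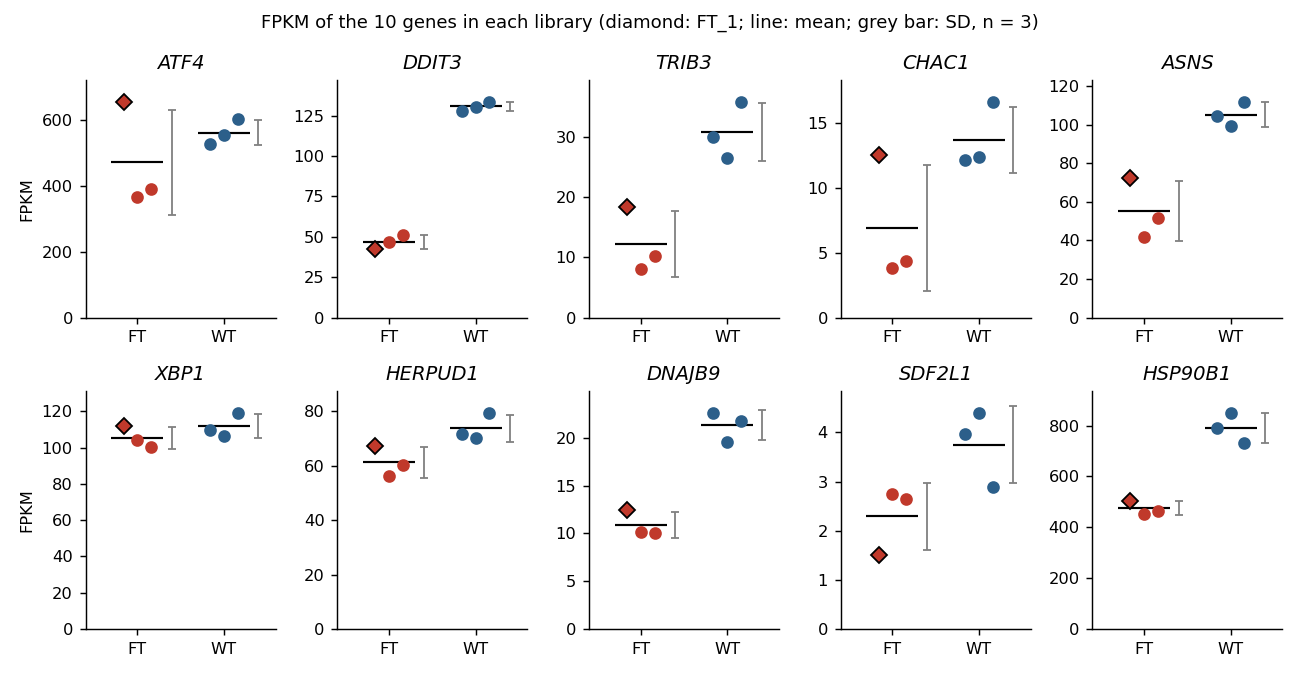
FPKM of each of the 10 genes (vertical axis, from 0) in the 3 FT and the 3 WT libraries, with FT_1 as a diamond, the group mean as a line and the SD as a grey bar. DDIT3 lies between 42.5 and 51.2 in FT and between 128 and 133.7 in WT libraries, whereas for ATF4 and CHAC1 FT_1 lies above or among the WT libraries and FT_2 and FT_3 lie under them.

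ATF4 encodes the transcription factor at the centre of the ISR. Its gene (ENSBTAG00000017462, chromosome 5, 110946624 to 110948715 in the authors' table) had FPKM values of 657, 367 and 393 in FT_1, FT_2 and FT_3 and of 527, 556 and 604 in WT_1, WT_2 and WT_3. FT_1 was the highest of the 6 libraries and FT_2 and FT_3 were the lowest, so that the groups overlapped through FT_1 alone. The log2 fold change was -0.10 (SE 0.23, adjusted p = 0.761 in edgeR). Without FT_1 it was -0.40 with an adjusted p of 0.00128 in edgeR, and without FT_2 or FT_3 it was 0.05 and 0.01.

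DDIT3 encodes CHOP, a transcription factor that ATF4 induces and that promotes cell death under lasting ER stress. The gene (ENSBTAG00000031544, chromosome 5, 55955676 to 55960509) had FPKM values of 42.5, 46.6 and 51.2 in FT_1, FT_2 and FT_3 and of 128, 130.3 and 134 in WT_1, WT_2 and WT_3. All FT libraries were low, FT_1 the lowest among them, and the gap between the groups was far wider than the spread within either. DDIT3 fell in FT cells with a log2 fold change of -1.32 (SE 0.10, adjusted p = 7.99e-04 in edgeR), which is a fitted level of 40.0% of that in WT cells and the largest change among the 10 genes in this fit. Without FT_1 the log2 fold change was -1.25 (adjusted p = 6.04e-07 in edgeR). DDIT3 overlaps the methionyl-tRNA synthetase gene MARS on the other strand by 59 of its 4834 bases, and whether the counting used strand is not given in the sources used here. MARS had FPKM values of 53.8, 39.4 and 40.2 in FT and 39.1, 39.2 and 43.3 in WT libraries and a log2 fold change of 0.29 (adjusted p = 0.134 in edgeR). None of the other 9 genes overlapped a gene of the table.

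TRIB3 is a pseudokinase that ATF4 and CHOP induce and that restrains both AKT and ATF4. Its gene (ENSBTAG00000017007, chromosome 13, 60634440 to 60645432) had FPKM values of 18.4, 8.14 and 10.2 in FT_1, FT_2 and FT_3 and of 30.0, 26.4 and 35.9 in WT_1, WT_2 and WT_3. The groups did not overlap, although FT_1 was closer to the WT libraries than FT_2 and FT_3 were. TRIB3 fell with a log2 fold change of -1.18 (SE 0.31, adjusted p = 0.0283 in edgeR) and of -1.58 without FT_1 (adjusted p = 1.10e-05 in edgeR). The call was lost when FT_2, FT_3, WT_1, WT_2 or WT_3 was left out, with adjusted p values of 0.0595 to 0.0948 in edgeR.

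CHAC1, which breaks down glutathione and is induced by ATF4, had the widest spread within FT cells relative to its mean, with a coefficient of variation of 70.4%. The gene (ENSBTAG00000010371, chromosome 10, 36485672 to 36488431) had FPKM values of 12.5, 3.83 and 4.37 in FT_1, FT_2 and FT_3 and of 12.1, 12.3 and 16.6 in WT_1, WT_2 and WT_3. FT_1 lay among the WT libraries, whereas FT_2 and FT_3 were lower than all of them. With all libraries the log2 fold change was -0.84 (SE 0.47, adjusted p = 0.204 in edgeR), and CHAC1 was not called. Without FT_1 it was -1.57 (adjusted p = 2.16e-05 in edgeR).

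ASNS encodes asparagine synthetase, a target of ATF4 under amino acid shortage. Its gene (ENSBTAG00000003222, chromosome 4, 15128694 to 15276513) had FPKM values of 72.5, 41.6 and 51.6 in FT_1, FT_2 and FT_3 and of 104, 99.3 and 112 in WT_1, WT_2 and WT_3. Every FT library was lower than every WT library, with FT_1 again the highest of the FT libraries. ASNS fell with a log2 fold change of -0.77 (SE 0.20, adjusted p = 0.0263 in edgeR) and of -1.0 without FT_1 (adjusted p = 1.82e-05 in edgeR). Without FT_3, WT_1, WT_2 or WT_3 the adjusted p was 0.0717 to 0.0878 in edgeR, over the threshold.

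XBP1, the transcription factor whose mRNA IRE1 splices, was not called. Its gene (ENSBTAG00000005970, chromosome 17, 68052596 to 68056965) had FPKM values of 112, 104 and 100.2 in FT_1, FT_2 and FT_3 and of 110.0, 106 and 119 in WT_1, WT_2 and WT_3. The groups overlapped, with FT_1 above WT_1 and WT_2. The log2 fold change was 0.07 (SE 0.08, adjusted p = 0.511 in edgeR), and it was 0.04 without FT_1 (adjusted p = 0.665 in edgeR) and -0.08 when libraries were scaled by total counts only. With a trend on gene length removed it was 0.26 (adjusted p = 0.0558 in edgeR). These values count the whole gene, so the spliced and unspliced forms of XBP1 mRNA were not told apart.

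HERPUD1 encodes an ER membrane protein of the pathway that removes misfolded proteins, and both ATF6 and ATF4 can induce it. The gene (ENSBTAG00000016896, chromosome 18, 24965857 to 24977798) had FPKM values of 67.4, 56.2 and 60.2 in FT_1, FT_2 and FT_3 and of 71.6, 70.2 and 79.5 in WT_1, WT_2 and WT_3. FPKM values of the groups did not overlap, but the highest FT and the lowest WT value were close, and after TMM scaling the groups overlapped. Its log2 fold change of -0.11 (SE 0.10, adjusted p = 0.409 in edgeR) was not called, nor was the value of -0.17 without FT_1 (adjusted p = 0.0773 in edgeR).

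DNAJB9 (ERdj4) is a co-chaperone of the ER, a target of XBP1, and holds IRE1 inactive together with HSPA5. Its gene (ENSBTAG00000046588, chromosome 4, 59583232 to 59586115) had FPKM values of 12.5, 10.2 and 10.1 in FT_1, FT_2 and FT_3 and of 22.6, 19.6 and 21.7 in WT_1, WT_2 and WT_3. The FT libraries were close to each other and the groups were well apart. DNAJB9 fell with a log2 fold change of -0.81 (SE 0.11, adjusted p = 0.00328 in edgeR) and of -0.91 without FT_1 (adjusted p = 2.30e-05 in edgeR).

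SDF2L1, an ER protein that works with HSPA5 and its co-chaperones, had the lowest level of the 10 genes. The gene (ENSBTAG00000000067, chromosome 17, 72112056 to 72114638) had FPKM values of 1.51, 2.74 and 2.64 in FT_1, FT_2 and FT_3 and of 3.96, 4.4 and 2.88 in WT_1, WT_2 and WT_3. FT_1 was the lowest library, in contrast to its place for TRIB3, CHAC1 and ASNS, and WT_3 lay just above FT_2 and FT_3. The log2 fold change of -0.54 (SE 0.31, adjusted p = 0.206 in edgeR) was not called, and without FT_1 it was -0.31 (adjusted p = 0.187 in edgeR).

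HSP90B1 encodes GRP94, the HSP90 chaperone of the ER. Its gene (ENSBTAG00000003362, chromosome 5, 67600075 to 67618814) had FPKM values of 505, 453 and 465 in FT_1, FT_2 and FT_3 and of 791, 850.1 and 733 in WT_1, WT_2 and WT_3. All FT libraries were lower than all WT libraries, and FT_1 was close to FT_2 and FT_3. HSP90B1 fell with a log2 fold change of -0.58 (SE 0.11, adjusted p = 0.00859 in edgeR) and of -0.61 without FT_1 (adjusted p = 5.71e-05 in edgeR).

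**Figure D2:**
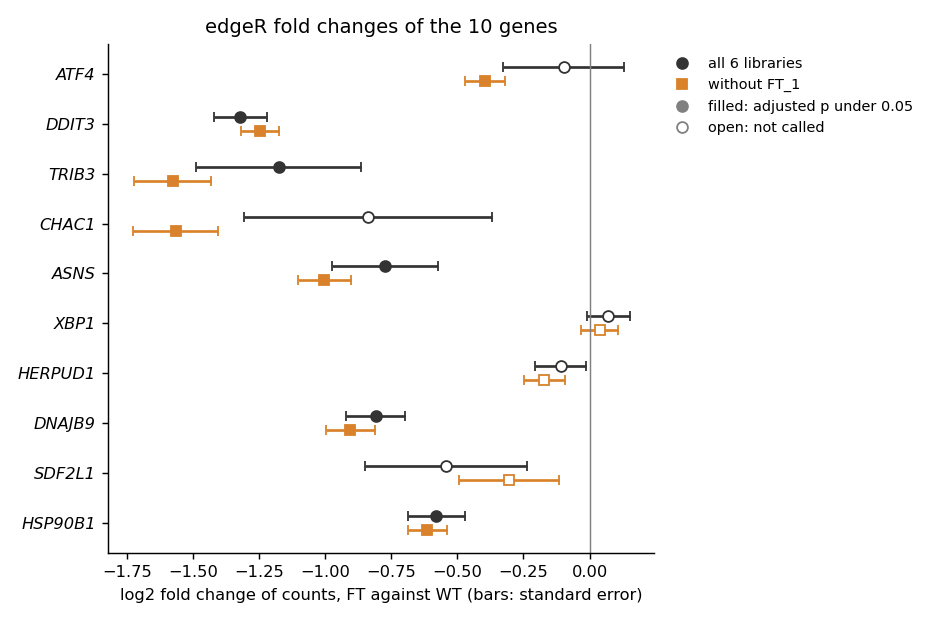
Log2 fold change of counts, FT against WT (horizontal axis), of each of the 10 genes from edgeR, with all 6 libraries as circles and without FT_1 as squares, bars giving the standard error (SE) and filled symbols an adjusted p under 0.05. DDIT3, DNAJB9 and HSP90B1 hardly move when FT_1 is left out, whereas CHAC1 moves from -0.84 to -1.57 and ATF4 from -0.10 to -0.40.

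By FPKM, the 10 genes spanned a wide range of levels. In WT cells the mean was highest for HSP90B1 (791 ± 58.7, SD, n = 3) and ATF4 (562 ± 38.6), followed by DDIT3 (131 ± 2.88), XBP1 (112 ± 6.61) and ASNS (105 ± 6.37). DDIT3 was higher than XBP1 and ASNS in every WT library, and XBP1 was higher than ASNS in each of them, although their ranges overlapped. HERPUD1 (73.7 ± 5.01), TRIB3 (30.8 ± 4.76), DNAJB9 (21.3 ± 1.55), CHAC1 (13.7 ± 2.54) and SDF2L1 (3.75 ± 0.782) made up the lower end. In FT cells HSP90B1 (475 ± 27.1) and ATF4 (472 ± 160.5) did not differ beyond the spread of ATF4. DDIT3, at 46.7 ± 4.35 in FT cells, was there lower than XBP1 (105 ± 6.01) and HERPUD1 (61.3 ± 5.68) in every library, the reverse of the order in WT cells.

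The targets of ATF4 were also set against ATF4 itself, as FPKM in percent of the FPKM of ATF4 in the same library. This ratio does not depend on how libraries are scaled, and it was chosen after the values had been seen. It was computed for the other 9 genes. For TRIB3 the ratio was 2.8%, 2.22% and 2.59% in FT_1, FT_2 and FT_3 and 5.7%, 4.75% and 5.94% in WT_1, WT_2 and WT_3. ASNS stood at 11.0%, 11.3% and 13.1% in the FT and 19.8%, 17.9% and 18.6% in the WT libraries. For both genes FT_1 was close to FT_2 and FT_3 on this scale. The coefficient of variation over FT libraries was 11.7% for the ratio of TRIB3 and 44.5% for its FPKM, 9.62% and 28.5% for ASNS and 35.3% and 70.4% for CHAC1. For the other 6 genes the ratio varied more than the FPKM, with 34.5% and 9.3% for DDIT3, 24.9% and 5.7% for XBP1, 21.4% and 9.28% for HERPUD1, 24.1% and 5.7% for HSP90B1, 18.9% and 12.5% for DNAJB9 and 50.8% and 29.7% for SDF2L1.

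DDIT3 behaved otherwise in FT_1. Its ratio to ATF4 was 6.47%, 12.7% and 13.0% in FT_1, FT_2 and FT_3 and 24.3%, 23.4% and 22.1% in WT_1, WT_2 and WT_3, so that FT_1 had the lowest DDIT3 and the highest ATF4 of the 6 libraries. CHAC1 ranged from 1.04% to 1.90% in FT and from 2.22% to 2.75% in WT libraries, and DNAJB9 from 1.90% to 2.77% and from 3.53% to 4.29%. For DDIT3, TRIB3, ASNS, CHAC1 and DNAJB9 every FT library was lower than every WT library on this ratio. Each gave p = 0.10 in a two-sided exact permutation test, the smallest p that 3 libraries against 3 can give. The share of all genes whose ratio to ATF4 separates the groups was not computed. By FPKM alone, every FT library lay under every WT library for 36.9% of all genes tested. By FPKM CHAC1 overlapped between the groups, and its ratio in FT_1 is lowered by the high ATF4 of that library. The ratios of XBP1, HERPUD1, HSP90B1 and SDF2L1 overlapped between the groups, with exact permutation p values of 0.2 for HSP90B1, 0.4 for XBP1, 0.5 for SDF2L1 and 1 for HERPUD1.

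**Figure D3:**
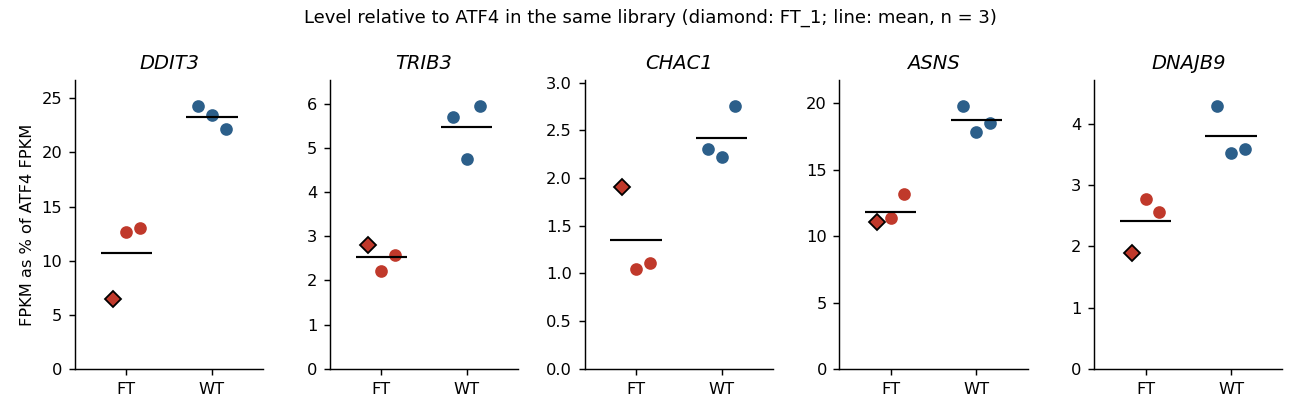
FPKM of DDIT3, TRIB3, CHAC1, ASNS and DNAJB9 in percent of the FPKM of ATF4 in the same library (vertical axes, from 0), with FT_1 as a diamond and the group mean as a line. FT libraries lie at 11.0% to 13.1% and WT libraries at 17.9% to 19.8% for ASNS, and FT_1 is the lowest library for DDIT3.

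FT_1 was compared with FT_2 and FT_3 gene by gene, as the difference in log2 of TMM-scaled counts relative to the library total (CPM). CHAC1 was higher in FT_1 by 1.52, TRIB3 by 0.96, ATF4 by 0.75 and ASNS by 0.60, whereas DDIT3 was at -0.24 and SDF2L1 at -0.78. XBP1, HSP90B1, HERPUD1 and DNAJB9 lay between 0.09 and 0.26. Over all genes the SD of this difference was 1.02, with 8.21% of genes above 1 and 7.99% under -1, while a WT library set against the other WT libraries gave an SD of 0.20 to 0.25. Of the 19 tested genes on a fixed list of amino acid and related targets of ATF4, which also holds GDF15, STC2, DDIT4, SESN2 and VLDLR from outside amino acid synthesis and transport, 16 were higher in FT_1 than in FT_2 and FT_3, 8 of them by more than 1, and the median was 0.90 against 0.00 for all genes.

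**Figure D4:**
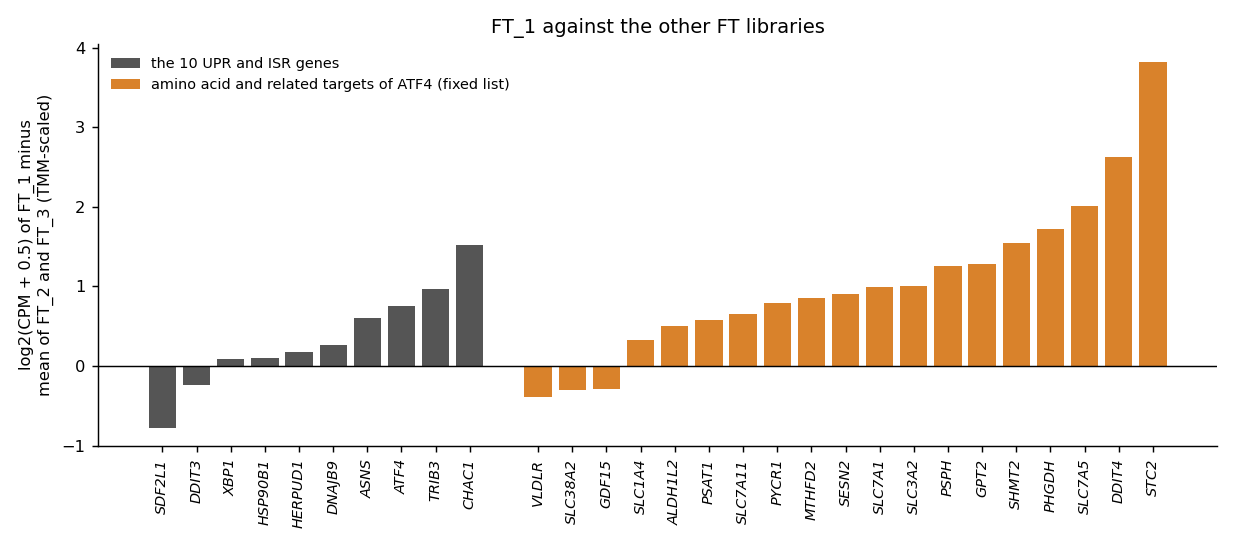
Log2 of TMM-scaled CPM (plus 0.5) in FT_1 minus the mean of FT_2 and FT_3 (vertical axis), 1 bar per gene, for the 10 UPR and ISR genes (grey) and for 19 amino acid and related targets of ATF4 (orange). CHAC1, TRIB3, ATF4 and ASNS and 16 of the 19 targets lie above 0, and the 2 largest values are those of STC2 and DDIT4.

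The other genes of the pathways were read from 10 fixed lists with 117 genes, which were also chosen with earlier results of these data known. Of these genes 115 were tested, and MBTPS2 and BBC3 were not analysed here. edgeR called 22 of the 115 higher and 31 lower, and their median log2 fold change was -0.09 against 0.03 for all genes. At 19.1% and 27.0%, the shares lay near the 20.1% and somewhat over the 18.9% of all genes. Without FT_1, 33 were higher and 52 lower, including all 22 and all 31. With another library left out, 11 to 18 were higher and 22 to 28 lower, lowest without WT_1 in both directions. Over all genes the shares of higher and lower genes were 30.6% and 31.5% without FT_1, and 10.98% to 15.6% and 11.1% to 14.4% with another library left out. When libraries were scaled by total counts only, which lowered the median of all genes by 0.15, 12 were called higher and 43 lower, beside 15.2% and 25.2% of all genes. No called gene on the lists changed sign under any scaling tried. Of the list genes named below, OS9, DNAJC10, ATF5, SYVN1, HSPA9, HSPB1, EIF2S1, EIF2B4, HSPD1 and HSPE1 overlap another gene of the table, HSPB1 with its whole span of 1671 bases, and reads may be shared there.

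Among the UPR sensors and their proteases, 3 of 5 tested genes were higher and 0 lower in edgeR, beside 20.1% and 18.9% of all genes. Without FT_1 the counts were 4 and 0, beside 30.6% and 31.5%. None of the 5 genes was lower at an unadjusted p under 0.05, in DESeq2 or in limma. ATF6 and its relative ATF6B, ER membrane proteins cut in the Golgi to release a transcription factor, rose in FT cells. ATF6 had FPKM values of 23.9, 20.0 and 22.7 in FT and 16.7, 14.6 and 18.1 in WT libraries, and every FT library was above every WT library. Its log2 fold change was 0.59 (SE 0.11, adjusted p = 0.00941 in edgeR), and that of ATF6B was 0.61 (adjusted p = 0.00619 in edgeR). ERN1, which encodes IRE1, had low FPKM values of 1.9, 1.61 and 1.77 in FT and 1.06, 1.06 and 1.42 in WT libraries. It was higher by a log2 fold change of 0.73 (adjusted p = 0.031 in edgeR), a call lost without FT_2, FT_3, WT_1 or WT_2 with an adjusted p of up to 0.118 in edgeR, and lost when libraries were scaled by total counts only. EIF2AK3, which encodes PERK, had FPKM values of 12.9, 14.5 and 13.5 in FT and 14.8, 12.6 and 14.3 in WT libraries, which overlapped, and a log2 fold change of 0.13 (adjusted p = 0.319 in edgeR).

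Chaperones and folding enzymes of the ER moved downward where they were called. Of 18 tested genes, 7 were lower and 0 higher, beside 18.9% and 20.1% of all genes, with a median log2 fold change of -0.23. At an unadjusted p under 0.05 edgeR had 1 gene higher, DESeq2 called 1 higher and limma 0. HSPA5 encodes BiP, the main HSP70 chaperone of the ER, which binds the sensors when folding demand is low. It had FPKM values of 357, 281 and 278 in FT_1, FT_2 and FT_3 and 556, 588 and 589 in WT_1, WT_2 and WT_3. The FT libraries were all lower, at a log2 fold change of -0.76 (SE 0.12, adjusted p = 0.0053 in edgeR) and -0.88 without FT_1. DNAJC10, a reductase and co-chaperone of HSPA5, had 38.5, 33.9 and 33.6 in FT and 81.8, 83.4 and 78.3 in WT libraries (log2 fold change -1.04), and MANF, a secreted protein that binds HSPA5, had 21.0, 25.9 and 24.4 and 56.7, 65.7 and 48.7 (log2 fold change -1.10). Neither gene overlapped between the groups. Without FT_1, 13 of the 18 were lower and 3 higher, beside 31.5% and 30.6% of all genes, and without WT_2 4 were lower, beside 11.3%.

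**Figure D5:**
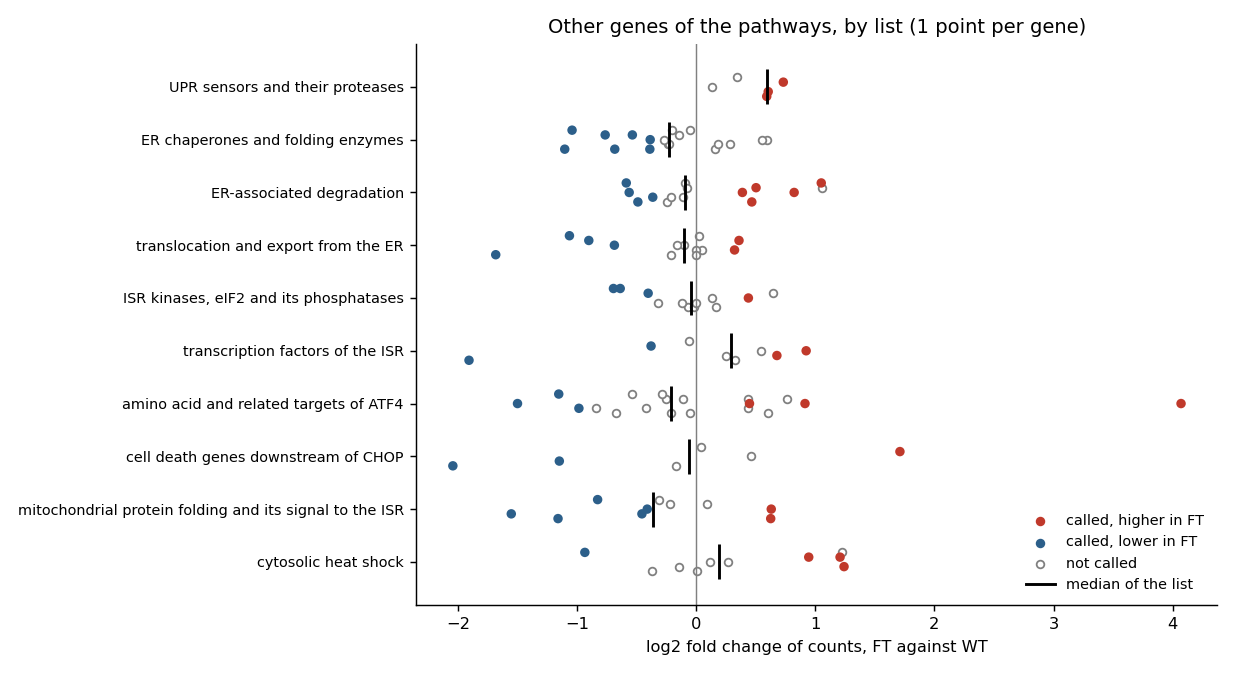
Log2 fold change of counts, FT against WT (horizontal axis), of 115 genes on 10 fixed lists, 1 point per gene and list, filled where edgeR gave an adjusted p under 0.05 and open otherwise, with the median of each list as a black line. The 7 called chaperones of the ER lie under 0 and the 3 called sensors above it, and the other lists hold called genes on both sides.

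Genes that remove misfolded proteins from the ER went both ways, with 5 of 15 higher and 4 lower, beside 20.1% and 18.9% of all genes. Without FT_1 the counts were 5 and 6, beside 30.6% and 31.5%. OS9, a lectin that hands misfolded glycoproteins to the ubiquitin ligase complex, rose from 51.1, 48.4 and 52.4 in WT_1, WT_2 and WT_3 to 81.2, 100.4 and 99.97 in FT_1, FT_2 and FT_3 (log2 fold change 1.05, adjusted p = 0.0019 in edgeR). UBE2G2, a ubiquitin-conjugating enzyme of this route, was higher by 0.50, and UBE2J1, another such enzyme, and EDEM2, which starts the trimming of mannose, were lower by log2 fold changes of -0.59 and -0.49. The remaining called genes, picked out only after their values were seen, were SYVN1, SEL1L and ERLEC1 among the higher and DERL2 and SELENOS among the lower. The calls of SEL1L, ERLEC1, SELENOS, DERL2 and EDEM2 were each lost without WT_1, with an adjusted p of 0.0508 for EDEM2 and of up to 0.117 for the others over all libraries left out. SEL1L and SELENOS also lost theirs without FT_3, WT_2 or WT_3, ERLEC1 without FT_2, WT_2 or WT_3 and DERL2 without WT_2, and SEL1L and ERLEC1 were not called with total counts only or in limma. The list had 3 higher and 6 lower genes with total counts only, beside 15.2% and 25.2% of all genes. It had 3 higher and 1 lower gene without WT_1, beside 10.98% and 11.1%, and 3 and 2 without WT_2, beside 11.6% and 11.3%.

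Protein translocation into the ER and export from it held 2 higher and 4 lower genes among 13, with and without FT_1. The shares of all genes were 20.1% and 18.9%, and 30.6% and 31.5% without FT_1. SEC61G, the small gamma subunit of the translocation channel, had FPKM values of 69.9, 90.3 and 84.9 in FT and 293, 313 and 273 in WT libraries, far apart, with a log2 fold change of -1.68 (SE 0.13, adjusted p = 8.09e-04 in edgeR). The channel's main subunit SEC61A1 had 98.0, 107 and 116 in FT and 99.1, 94.0 and 86.7 in WT libraries, which overlapped, and a log2 fold change of 0.36 (adjusted p = 0.0415 in edgeR). The call of SEC61A1 was lost when any 1 library other than FT_1 was left out (adjusted p of 0.0946 to 0.140 in edgeR), and that of SSR2, a subunit of the translocon-associated complex (log2 fold change 0.32), without FT_2, WT_1, WT_2 or WT_3 (adjusted p of 0.0534 to 0.0824 in edgeR). Both calls were also lost when libraries were scaled by total counts only. SRPRB, a subunit of the receptor for the signal recognition particle, was lower at -1.06, as were the signal peptidase subunits SPCS2 and SPCS3, named after their values were seen, with the call of SPCS3 lost when the length trend was removed (log2 fold change -0.58, adjusted p = 0.0524 in edgeR).

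Among kinases, eIF2 and phosphatases of the ISR, 1 of 12 genes was higher and 3 were lower, beside 20.1% and 18.9% of all genes. Without FT_1 the counts were 2 and 4, beside 30.6% and 31.5%. EIF2S1, the subunit of eIF2 that the ISR kinases phosphorylate, had FPKM values of 27.8, 32.2 and 31.4 in FT_1, FT_2 and FT_3 and 53.9, 59.4 and 52.0 in WT_1, WT_2 and WT_3. It fell by a wide margin, with a log2 fold change of -0.69 (SE 0.10, adjusted p = 0.00383 in edgeR). The exchange factor eIF2B, which phosphorylated eIF2 inhibits, was split, with EIF2B1 at -0.64 and EIF2B5, named after its value was seen, also lower, and EIF2B4 higher at 0.44, a call lost without WT_1 (adjusted p = 0.0614 in edgeR) and when libraries were scaled by total counts only. PPP1R15A, the stress-induced subunit that recruits a phosphatase to eIF2, had 13.8, 19.6 and 19.1 in FT and 17.9, 19.7 and 22.0 in WT libraries and a log2 fold change of -0.02 (adjusted p = 0.937 in edgeR).

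Transcription factors of the ISR moved in both directions, 2 of 8 higher and 2 lower, beside 20.1% and 18.9% of all genes. Without FT_1 the counts were 3 and 2, beside 30.6% and 31.5%. ATF3, which ATF4 and CHOP induce early in the response, had FPKM values of 7.09, 5.47 and 5.25 in FT_1, FT_2 and FT_3 and 24.8, 25.8 and 24.0 in WT_1, WT_2 and WT_3. FT_1 was near FT_2 and FT_3 and far under the WT libraries. ATF3 fell with a log2 fold change of -1.91 (SE 0.13, adjusted p = 6.38e-04 in edgeR) and of -2.04 without FT_1. CEBPB, a partner of ATF4, rose from 33.6, 29.9 and 38.8 in WT to 45.3, 66.7 and 61.6 in FT libraries (log2 fold change 0.92, adjusted p = 0.011 in edgeR), and CEBPG, another partner, was lower at -0.38. ATF5, which like ATF4 is favoured by the ISR at translation, was higher at 0.68 (adjusted p = 0.0445 in edgeR). The call of ATF5 was lost when any 1 library other than FT_1 was left out (adjusted p of 0.0538 to 0.149 in edgeR), that of CEBPB without WT_1 or WT_2 (adjusted p of up to 0.0526 in edgeR) and that of CEBPG without WT_1 (adjusted p = 0.0557 in edgeR) and with the length trend removed (log2 fold change -0.23, adjusted p = 0.0637 in edgeR), and ATF5 was not called when libraries were scaled by total counts only.

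For the amino acid and related targets of ATF4, the count changed without FT_1. edgeR called 3 of 19 higher and 3 lower with all libraries, beside 20.1% and 18.9% of all genes. Without FT_1 it called 5 higher and 12 lower, where the shares over all genes had risen to 30.6% and 31.5%. Without WT_1, WT_2 or WT_3 the counts were 1 higher and 1 lower, beside 10.98% to 12.97% and 11.1% to 12.6% of all genes. They were 2 and 2 without FT_2 and 3 and 1 without FT_3, beside 15.3% to 15.6% and 14.2% to 14.4%. With total counts only they were 1 and 4, beside 15.2% and 25.2%. The median log2 fold change was -0.21 with all libraries, -0.57 without FT_1, 0.07 without FT_2 and 0.00 without FT_3. PSAT1, an enzyme of serine synthesis, had FPKM values of 99.9, 62.1 and 68.7 in FT and 174, 159 and 176 in WT libraries and a log2 fold change of -0.98 (adjusted p = 0.00874 in edgeR) or -1.20 without FT_1. SESN2, an inhibitor of mTORC1 signalling, had 15.0, 7.18 and 8.4 in FT and 24.4, 23.4 and 27.9 in WT libraries (log2 fold change -1.15), a call lost without FT_3, WT_1, WT_2 or WT_3 (adjusted p of up to 0.0735 in edgeR). PSPH, the last enzyme of serine synthesis, was the other lower gene, and its call was lost when any 1 library other than FT_1 was left out (adjusted p of 0.0589 to 0.0742 in edgeR).

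GDF15, a secreted stress signal, rose from 4.19, 4.65 and 4.59 in WT to 6.63, 7.5 and 8.51 in FT libraries, and SLC38A2, an amino acid transporter, was higher at 0.45, a call lost when any 1 library other than FT_1 was left out (adjusted p of at least 0.0828 in edgeR) and when libraries were scaled by total counts only. STC2, a secreted glycoprotein, was also called higher, but it had FPKM values of 36.8, 1.96 and 2.65 in FT_1, FT_2 and FT_3 and 0.86, 0.62 and 1.22 in WT_1, WT_2 and WT_3. Its log2 fold change was 4.07 with all libraries and 1.53 without FT_1, and the call was lost in 11 of 17 alternatives, among them WT_1, WT_2 or WT_3 left out (adjusted p of 0.126 to 0.157 in edgeR), total counts only, DESeq2, limma and the robust fit. DDIT4, a stress-induced inhibitor of mTORC1, had 88.6, 12.1 and 15.7 in FT and 72.2, 73.1 and 85.3 in WT libraries, and PHGDH, the first enzyme of serine synthesis, had 288, 86.7 and 82.5 and 190.0, 186 and 208. For DDIT4 and PHGDH FT_1 was the highest of the 6 libraries and FT_2 and FT_3 were the lowest, as for ATF4. Neither was called with all libraries, and without FT_1 their log2 fold changes were -2.29 (adjusted p = 4.67e-07 in edgeR) and -1.03 (adjusted p = 1.92e-06 in edgeR). PSPH, STC2, DDIT4 and PHGDH were chosen after their values had been seen.

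Among the cell death genes downstream of CHOP, 1 of 6 was higher and 2 were lower, beside 20.1% and 18.9% of all genes. Without FT_1 the counts were 2 and 2, beside 30.6% and 31.5%. PMAIP1 (NOXA), a BH3-only protein that ATF4 can induce, had FPKM values of 5.82, 7.33 and 7.86 in FT_1, FT_2 and FT_3 and 31.7, 25.0 and 40.5 in WT_1, WT_2 and WT_3. All FT libraries were far lower, with a log2 fold change of -2.04 (SE 0.24, adjusted p = 0.00211 in edgeR). BAX, which forms pores in the mitochondrial outer membrane, fell from 70.4, 74.5 and 68.1 in WT to 28.2, 28.9 and 29.0 in FT libraries (log2 fold change -1.15). BCL2L11 (BIM), a BH3-only protein that CHOP can induce, moved the other way at low levels, 2.82, 1.95 and 1.91 in FT and 0.74, 0.83 and 0.69 in WT libraries (log2 fold change 1.71, adjusted p = 0.00228 in edgeR).

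Mitochondrial protein folding genes were lower in 5 and higher in 2 of 10 cases, beside 18.9% and 20.1% of all genes. Their median log2 fold change was -0.36. Without FT_1 they were lower in 7 and higher in 2 cases, where the shares over all genes had risen to 31.5% and 30.6%. HSPE1 and HSPD1, the paired chaperonins of the mitochondrial matrix, were both lower, but their genes overlap by 959 bases on opposite strands, so the values may share reads. HSPE1 had FPKM values of 69.9, 61.6 and 54.8 in FT and 205, 230.3 and 174 in WT libraries (log2 fold change -1.55, adjusted p = 0.00107 in edgeR), and HSPD1 had 81.9, 76.8 and 82.1 and 193, 224 and 184 (log2 fold change -1.16). A second gene of the table with the name HSPD1 had a log2 fold change of -0.46 (adjusted p = 0.0632 in edgeR), so reads may be split between these copies and the values are uncertain. HSPA9, CLPX and LONP1, named after their values were seen, were the other lower genes, and the call of LONP1 was lost without FT_2, FT_3, WT_1 or WT_3 (adjusted p of up to 0.0840 in edgeR). DELE1, which carries the signal of mitochondrial stress to the ISR, had 19.6, 12.9 and 13.6 in FT and 11.2, 10.7 and 11.2 in WT libraries and a log2 fold change of 0.63 (adjusted p = 0.025 in edgeR), a call lost without WT_1, WT_2 or WT_3 and when libraries were scaled by total counts only. The matrix protease CLPP was higher at 0.63.

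Cytosolic heat shock genes, a stress response apart from the ER, were higher in 3 and lower in 1 of 10 cases. The shares of all genes were 20.1% and 18.9%. Without FT_1 the counts were 5 and 2, beside 30.6% and 31.5%. HSF1, the main transcription factor of heat shock genes, rose from 9.96, 10.8 and 10.5 in WT to 18.8, 16.8 and 18.3 in FT libraries (log2 fold change 0.95, adjusted p = 9.38e-04 in edgeR). HSPA1A, the inducible HSP70, had 127, 106 and 96.0 in FT and 49.7, 53.1 and 52.5 in WT libraries (log2 fold change 1.24), with uncertainty because a near-identical copy of this gene can share its reads. HSPB1, a small heat shock protein named after its value was seen, was the other higher gene. HSP90AA1, the inducible HSP90 of the cytosol and a relative of HSP90B1, fell from 393, 438 and 375 in WT_1, WT_2 and WT_3 to 149.6, 209 and 205 in FT_1, FT_2 and FT_3 (log2 fold change -0.93, adjusted p = 0.00865 in edgeR).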

How the data were processed

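The authors deposited 1 table with raw counts and FPKM values per gene and library; reads were mapped and transcripts assembled by the authors, and the submitters' processing notes name Bowtie 0.12.2, HISAT2 2.0 and StringTie 1.3.0. The notes also list mm8, a mouse build, while the table carries cattle gene identifiers, so coordinates are as in the authors' table and their build is not given in the sources used here. The raw counts the authors deposited were whole numbers summing to 48167642 to 69777641 per library, and the FPKM values they deposited are scaled by gene length and library total.

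Counts were fitted with edgeR 4.0.16 in R 4.3.3 (TMM factors, filterByExpr with a minimum count of 10, quasi-likelihood test, Benjamini-Hochberg adjustment over 13482 genes). The TMM factors were 0.934 to 0.968 in FT and 1.05 to 1.06 in WT libraries. Standard errors were derived from the fold change and its F statistic. limma 3.58.1 with a trend was run on log2(FPKM + 1) for genes averaging 0.5 FPKM or more, a scale that understates the change of low genes, and DESeq2 1.42.0 on the counts. The edgeR fit with and without the length trend, DESeq2 and limma were tested on simulated data. These data had less spread between replicates than the real libraries and no outlying library. How the fits behave with a library such as FT_1 was not tested. The 3 replicates of a group are different fetuses.

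The members and lists were chosen with earlier results of these data known, so no p was adjusted over a list. Named genes are the 10 members, 7 core genes and, per list, the 2 called genes with the smallest edgeR p in each direction. A symbol with 2 rows was taken from the row with the higher mean FPKM. Alternatives covered scaling, filter, tool, pseudocount, gene length, threshold, a replicate block and leaving out each library.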

Additional observations from a re-analysis of the deposited data

How the results depend on the processing

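Of the 10 genes, DDIT3 and DNAJB9 kept direction and call in all 17 alternatives other than the study's threshold, at which DDIT3 was called and DNAJB9 was not, with log2 fold changes of -1.49 to -1.15 and -0.97 to -0.77. The count of 5 lower genes was 2 at the study's threshold and 3 to 7 with 1 library left out. For the fixed lists, 22 higher genes became 12 with total counts only, 12 in each of the 3 limma settings, 6 at the study's threshold and 11 to 33 with 1 library left out, and 31 lower genes became 43 with total counts only, 45, 45 and 42 in the limma settings, 11 at the study's threshold and 22 to 52 with 1 library left out. The cause was not tested, except that the study's threshold adds a fold limit. Total counts only moved the median of all genes by -0.15 and limma on log2(FPKM + 1) by -0.16, and the share of higher genes among called genes went from 51.6% to 37.6% and 34.0%.

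With the replicate number as a replicate block, 4 of the 10 genes were lower (HSP90B1 at an adjusted p of 0.0531 in edgeR) and 13 list genes were higher, and no other call among the 10 genes changed. Libraries of the same number correlated at -0.03, -0.04 and 0.05 in their deviations, which gives no sign that the numbers pair the fetuses.

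Uncalled values changed sign in some settings, and the cause was not tested. ATF4 was 0.028 with the length trend removed and -0.40 to 0.049 with 1 library left out. XBP1 was -0.078 with total counts only and -0.085, -0.086 and -0.085 in the 3 limma settings, and 0.26 with the length trend removed. EIF2AK3 was -0.021 with total counts only, -0.017 with the length trend removed and -0.026, -0.027 and -0.026 in the limma settings. With 1 library left out PPP1R15A was -0.11 to 0.13 and PHGDH -1.03 to 0.082. Of 35 named list genes called, 24 were called in all 17 alternatives other than the study's threshold. Among all list genes named in the text, the calls of ERN1, SSR2, SEC61A1, EIF2B4, ATF5, SLC38A2, DELE1, STC2, SEL1L and ERLEC1 were lost with total counts only and in limma on log2(FPKM + 1), those of SEC61A1, CEBPG, SLC38A2, SEL1L, SELENOS and SPCS3 with the length trend removed, those of SEC61A1, ATF5 and STC2 with no filter, that of SEC61A1 with upper-quartile factors and that of STC2 in DESeq2 and the robust fit. The replicate block lost those of ERN1, SSR2, SEC61A1, EIF2B4, ATF5, CEBPG, SLC38A2, STC2, SEL1L, ERLEC1, SELENOS and SPCS3. SDF2L1 had the lowest counts of the 10 genes, with 177 to 510 per library, and the part of depth in its result was not tested.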

Other observations

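Annotation terms in the table were also counted, a choice made after the values had been seen. Of 148 tested genes with the KEGG term for protein processing in the ER, edgeR called 29 higher and 31 lower in FT cells, 19.6% and 20.9%, with a median log2 fold change of -0.05. Of 81 tested genes with the GO term for the response to ER stress, 27 were higher and 15 lower, 33.3% and 18.5%, with a median of 0.20. The shares over all genes tested were 20.1% and 18.9%. Without FT_1, where 30.6% and 31.5% of all genes were called, the counts were 41 higher and 50 lower for the KEGG term and 34 and 24 for the GO term, and without WT_2 they were 15 and 21 for the KEGG term and 10 and 11 for the GO term, beside 11.6% and 11.3% of all genes. Without WT_1 the KEGG term had 13 higher and 20 lower genes and the GO term 12 and 11, beside 10.98% and 11.1% of all genes. With libraries scaled by total counts only, the KEGG term had 16 higher and 47 lower genes and the GO term 14 and 17, beside 15.2% and 25.2% of all genes. Whether these terms differ from the 10 UPR and ISR genes was not tested.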
